A study of Mus musculus with 2 samples.

Results

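The transcripts of 10 glycolytic enzymes were followed across thymic cells sorted as invariant natural killer T (iNKT) cells: Ldha, Ldhb, Eno1, Eno3, Pkm, Pgk1, Aldoa, Tpi1, Gapdh and Hk2. These 10 genes, chosen by symbol, are 10 of the 32285 gene rows of the count matrix. The cells came from C57BL/6 control mice (Ctrl) and from T-KO mice, whose floxed Kidins220 gene is deleted by Cre under the proximal Lck promoter, which is active from early thymocytes on. The methods give ages of 6 to 46 weeks for the mice of the whole study, and the thymi of 4 mice per genotype were pooled. From cells that bound CD1d tetramer and carried TCRβ, stage 0 cells were sorted by CD24 without NK1.1 and stage 3 cells by NK1.1 and CD44 without CD24, with 2 sorts of each per genotype, and the 8 sorted populations were marked with hashtag antibodies and sequenced as 1 droplet library read from the 5′ end of the transcripts.

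Of 16179 barcodes, 12147 had at least 1000 genes and at most 5% mitochondrial unique molecular identifiers (UMIs, each counting 1 captured transcript molecule). Of these, 10007 had at least 80% of at least 10 hashtag UMIs on 1 of the hashtag rows numbered 11 to 18, with 577 to 2162 cells and 2283162 to 14601545 gene UMIs per row. The labels number the hashtags from 1, and no source used here pairs the rows 11 to 18 with a stage or genotype. So no Ctrl against T-KO comparison was made, and no stage comparison was tested. The odd-numbered rows (4249 cells) and the even-numbered rows (5758 cells) differed in markers of the sort: Cd24a lay between 313 and 365 counts per 1000000 UMIs (CPM) in odd and between 23.3 and 34.2 CPM in even rows, and Klrb1c, which encodes NK1.1, between 4.78 and 6.57 CPM in odd and between 328 and 444 CPM in even rows. By these transcripts the odd rows resembled the stage 0 sort and the even rows the stage 3 sort, though no label says so. The iNKT label held less well in the odd rows: Trav11, the α-chain segment of the iNKT receptor, reached 0.205 to 1.14 CPM there against 39.5 to 56.5 CPM in even rows, and Zbtb16 4.72 to 7.41 CPM against 64.7 to 74.7 CPM. Cells of other types were also in the odd rows, where 810 cells held at least 2 UMIs of the B cell gene Cd79a and 972 others at least 5 UMIs of Cst3, which marks dendritic cells and macrophages. Of the remaining odd-row cells, 418 held at least 1 UMI of Rag1, the recombinase of immature lymphocytes, 1106 held at least 2 UMIs of the transcription factor gene Ikzf2, and 943 met none of these limits. Each of these sets is called by its gene below, and cells were called cycling with at least 2 UMIs of Mki67 and Top2a together and noncycling with 0. The Ikzf2 cells themselves had 0 to 1.70 CPM of Trav11 and 3.41 to 17.8 CPM of Zbtb16, below the even rows for both genes. Whether the Ikzf2 cells are iNKT cells was not tested.

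Glycolysis splits glucose into pyruvate, and lactate dehydrogenase turns pyruvate into lactate or back. Several steps are carried by isozymes from separate genes: lactate dehydrogenase is a tetramer of A subunits (Ldha), typical of glycolytic cells, and B subunits (Ldhb), typical of oxidative tissues, while enolase is ubiquitous as Eno1 and typical of muscle as Eno3. Hexokinase 2 (Hk2) is an inducible hexokinase beside the widespread Hk1. In T lineage cells, glycolytic enzymes are known to be raised during the proliferation of thymocytes and after activation.

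The genes lie on separate loci of the GRCm38 (mm10) assembly, in GENCODE M21 at chr7:46841475-46855627 (Ldha, + strand), chr6:142490249-142507957 (Ldhb, -), chr4:150236721-150248879 (Eno1, +) and chr11:70657202-70662513 (Eno3, +). Pgk1 lies at chrX:106187100-106203699 (+), and Tpi1 (chr6:124810586-124814296) and Gapdh (chr6:125161715-125166467) share the minus strand of chromosome 6 with Hk2 (chr6:82725025-82774454). Pkm lies at chr9:59656368-59679375 (+) and Aldoa at chr7:126795234-126800751 (-). Promoter windows are shown for 4 members because they fall on opposite sides of the cycling comparison below: Ldha and Pgk1 were higher and Ldhb and Eno3 lower in cycling Ikzf2 cells. Each window runs from 250 bases before to 50 bases after the first transcription start listed for the gene in RefSeq (GRCm38.p6), 5′ to 3′ on the strand of the gene, at chr7:46845554-46845853 (Ldha), chrX:106186850-106187149 (Pgk1), chr6:142507908-142508207 (Ldhb) and chr11:70656926-70657225 (Eno3). Capitals mark ACGTG on either strand, the core shared by hypoxia response elements and by the E-box CACGTG, in which both strands overlap.
Ldha: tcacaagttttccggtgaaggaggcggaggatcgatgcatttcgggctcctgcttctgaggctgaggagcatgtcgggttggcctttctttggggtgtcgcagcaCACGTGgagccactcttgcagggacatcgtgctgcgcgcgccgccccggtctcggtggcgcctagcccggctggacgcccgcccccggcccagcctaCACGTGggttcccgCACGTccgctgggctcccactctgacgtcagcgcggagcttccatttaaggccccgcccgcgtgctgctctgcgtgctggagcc
Ldhb: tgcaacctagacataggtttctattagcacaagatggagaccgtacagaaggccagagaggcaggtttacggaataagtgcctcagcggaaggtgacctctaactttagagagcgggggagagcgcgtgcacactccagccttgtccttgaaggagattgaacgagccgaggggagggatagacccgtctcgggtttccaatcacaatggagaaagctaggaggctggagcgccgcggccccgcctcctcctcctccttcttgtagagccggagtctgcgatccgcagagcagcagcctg
Pgk1: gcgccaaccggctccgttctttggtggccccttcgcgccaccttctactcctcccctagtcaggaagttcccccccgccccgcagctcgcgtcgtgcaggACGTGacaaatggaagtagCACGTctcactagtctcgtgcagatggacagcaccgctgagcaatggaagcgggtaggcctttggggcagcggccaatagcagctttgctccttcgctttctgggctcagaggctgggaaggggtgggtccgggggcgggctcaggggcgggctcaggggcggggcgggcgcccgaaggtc
Eno3: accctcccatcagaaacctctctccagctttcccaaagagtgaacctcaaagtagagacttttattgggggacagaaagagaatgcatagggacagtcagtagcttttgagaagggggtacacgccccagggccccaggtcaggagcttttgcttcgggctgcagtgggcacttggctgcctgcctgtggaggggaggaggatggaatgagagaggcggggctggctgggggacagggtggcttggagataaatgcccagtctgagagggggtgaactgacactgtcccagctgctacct
ACGTG was present in the windows of 4 of the 10 members (Ldha, Pgk1, Gapdh and Hk2) and in 19.7% of the 27025 first-listed windows of all genes. Tpi1 also rose with cycling in Ikzf2 cells but had no ACGTG in its window, and Hk2 was not tested there. The 4 windows shown thus do not stand for all members. The whole CACGTG was present 2 times in the Ldha window, in no window of the other members and in 7.24% of all windows. These are matches of letters and no measured binding sites, and a gene can have further starts outside the window.

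Among the pair of lactate dehydrogenase genes, Ldha was the abundant transcript in every row and Ldhb the minor transcript, whose level separated the rows. Since a UMI counts 1 molecule whatever its length, CPM were set side by side between genes without a length correction, though capture can differ between transcripts. Ldha stood at 718, 915, 1076 and 1122 CPM in rows 11, 13, 15 and 17 and at 562, 543, 747 and 688 CPM in rows 12, 14, 16 and 18. The odd and even rows overlapped, as row 16 was above row 11. Ldhb stood at 61.3, 89.5, 82.5 and 108 CPM in rows 11, 13, 15 and 17 and at 19.8, 18.3, 13.6 and 12.2 CPM in rows 12, 14, 16 and 18. The lowest odd row was thus above the highest even row, and the medians differed 5.39-fold. Ldhb made up 7.12% to 8.91% of the UMIs of both genes in odd rows and 1.74% to 3.41% in even rows.

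Enolase differed in both isozymes, in opposite directions. Eno1 measured 356, 345, 385 and 411 CPM in rows 11, 13, 15 and 17 and 656, 637, 682 and 642 CPM in rows 12, 14, 16 and 18. All even rows were above all odd rows, with medians 1.75-fold apart. Eno3 measured 22.9, 59.3, 42.5 and 65.0 CPM in rows 11, 13, 15 and 17 and 5.78, 8.35, 7.01 and 6.80 CPM in rows 12, 14, 16 and 18. All odd rows were above all even rows, with medians 7.37-fold apart, and row 11 lay nearest to the even rows. Eno3 supplied 6.04% to 14.7% of the enolase UMIs in odd rows and 0.873% to 1.29% in even rows. Eno1b, a near-identical copy of Eno1 with 1979 UMIs against 38364 of Eno1, measured 17.6 to 19.5 CPM in odd and 30.8 to 39.0 CPM in even rows, and reads that fit both could have been split or lost.

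**Figure D1:**
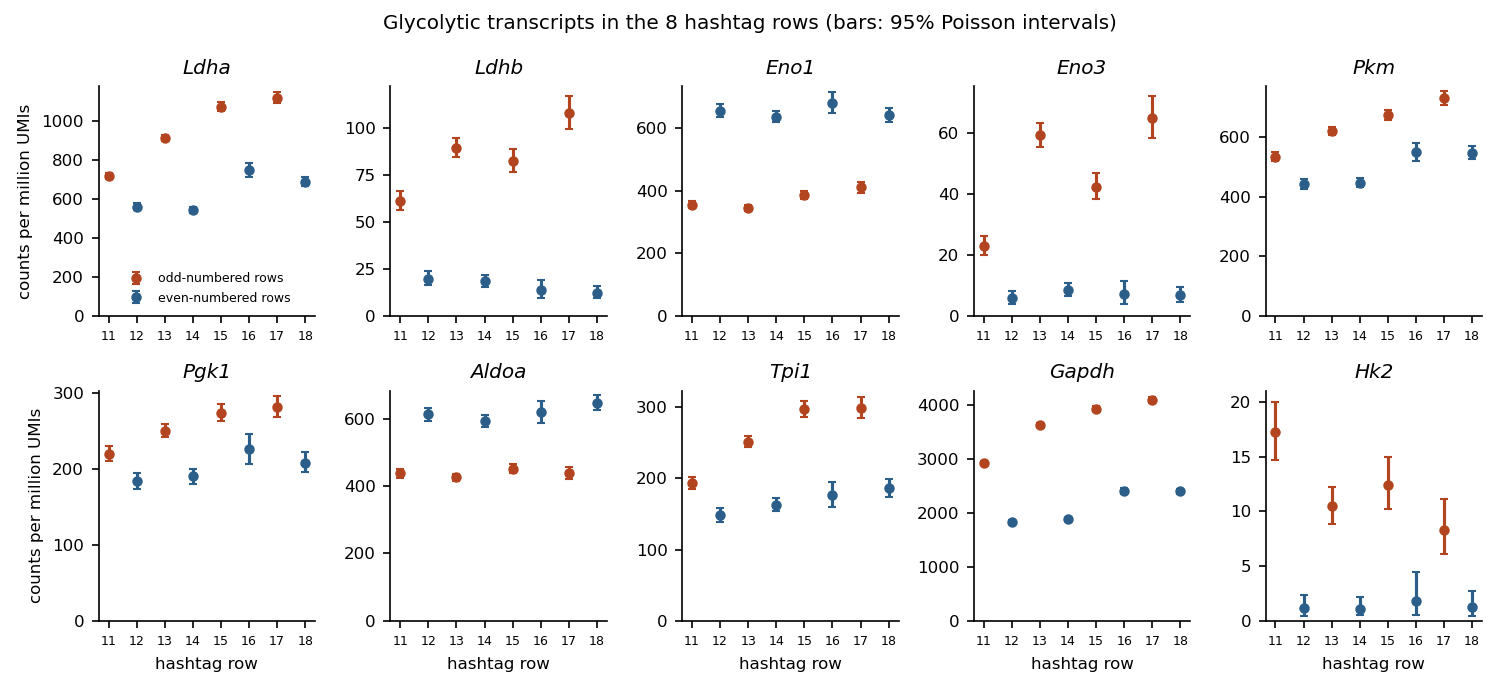
Counts per 1000000 UMIs (y axis, from 0) of the 10 genes in the 8 hashtag rows (x axis), with 95% exact Poisson intervals as bars, odd rows in red and even rows in blue. Ldhb, Eno3, Tpi1, Gapdh and Hk2 were higher in every odd row, Eno1 and Aldoa in every even row, and the rows overlapped for Ldha, Pkm and Pgk1.

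Hk2, which phosphorylates glucose at the entry of the pathway, was the rarest member. It measured 17.2, 10.5, 12.4 and 8.33 CPM in rows 11, 13, 15 and 17 and 1.16, 1.09, 1.75 and 1.24 CPM in rows 12, 14, 16 and 18, where it rested on 4 to 8 UMIs per row. The ranges did not overlap, and the medians differed 9.56-fold. Hk1 had the opposite order, with 34.5 to 40.7 CPM in odd and 70.3 to 78.8 CPM in even rows, so that Hk2 held 16.98% to 32.1% of the UMIs of Hk1 and Hk2 in odd rows and 1.52% to 2.17% in even rows.

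Of the enzymes that work in between, Gapdh, the glyceraldehyde-3-phosphate dehydrogenase, was the most abundant member in all 8 rows. It measured 2927, 3635, 3943 and 4100 CPM in rows 11, 13, 15 and 17 and 1833, 1880, 2408 and 2406 CPM in rows 12, 14, 16 and 18. Tpi1, the triosephosphate isomerase, ranged from 194 to 300 CPM in odd rows and from 149 to 186 CPM in even rows. For both genes every odd row was above every even row, for Tpi1 by a narrow margin between rows 11 and 18. Aldoa, an aldolase, went the other way, with 426 to 452 CPM in odd and 593 to 647 CPM in even rows. Pkm, the pyruvate kinase, spanned 534 to 731 CPM in odd and 443 to 548 CPM in even rows, and Pgk1, the phosphoglycerate kinase, 220 to 282 CPM and 184 to 226 CPM, and both overlapped. The 2 splice forms of Pkm cannot be told apart in counts per gene.

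In all, 5 of the 10 members were higher in every odd than in every even row and 2 of 10 were higher in every even row. Over the 9180 genes with a median of at least 10 CPM in odd or even rows, 36.1% were higher in every odd row and 26.1% in every even row, so a separation of the rows was common among all genes. Tpi1 overlapped among cells of 3000 to 15000 UMIs, after thinning each cell to 2000 UMIs and in CPM without ribosomal and mitochondrial genes, and Pgk1 no longer overlapped when 90% of the hashtag UMIs had to lie on 1 row. Depth moved with the rows, with a median of 6500 to 8068 UMIs per cell in odd and 3258 to 3804 in even rows, and so did cycling, with 28.6% to 44.7% cycling cells in odd and 4.91% to 7.02% in even rows. The part of these in the row levels was not tested. In bulk sums of this kind, fewer cells with a transcript and less of it per cell cannot be told apart. After thinning to 2000 UMIs, 12.8% to 22.4% of the cells of odd rows and 2.35% to 3.88% of those of even rows held an Ldhb UMI (27.5% to 47.2% and 4.66% to 6.16% unthinned), and 3.34% to 12.2% and 0.923% to 1.63% an Eno3 UMI (8.33% to 22.8% and 1.94% to 2.78% unthinned). No cell type here is known to lack these genes, so the background of free RNA was not measured directly. As a bound on it, 1.08% to 2.54% of the thinned Cd79a cells, with a median of 5374 to 6454 UMIs before thinning, held an Ldhb UMI and 0% to 3.39% an Eno3 UMI. The shares of the even rows overlap these ranges, and no expression is read from them.

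Of the other 23 genes of glycolysis, glucose uptake and lactate transport, 11 reached 10 CPM in odd or even rows, 5 of them higher in every odd row and 4 in every even row. The glucose transporter genes Slc2a1 and Slc2a3 had 25.4 to 30.2 CPM and 5.55 to 9.34 CPM in odd rows and 50.1 to 53.2 CPM and 44.2 to 54.0 CPM in even rows. The lactate and pyruvate transporter gene Slc16a1 had 12.8 to 30.9 CPM in odd rows and 3.07 to 7.01 CPM in even rows. Pgam1, the phosphoglycerate mutase, had 235 to 309 CPM in odd and 176 to 218 CPM in even rows. The liver and red cell pyruvate kinase Pklr had 0 CPM in all rows, and the testis dehydrogenase Ldhc at most 0.103 CPM.

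Which cells of the odd rows held the minor isozymes was read from the sets. Eno3 was concentrated in the Ikzf2 cells. It measured 116, 185, 120 and 145 CPM in the Ikzf2 cells of rows 11, 13, 15 and 17, against 6.14, 15.7, 4.51 and 15.2 CPM in the Rag1 cells of the same rows. In the remaining cells it measured 10.8, 14.4, 9.16 and 17.03 CPM. Every row had at least 116 CPM in the Ikzf2 cells and at most 17.03 CPM in these 2 other sets. Eno3 was higher in the noncycling part of the remaining cells. Noncycling cells had 22.5 to 49.5 CPM in the remaining set and 116 to 294 CPM in the Ikzf2 set. Cycling cells had 4.87 to 9.36 CPM and 55.6 to 111 CPM. Noncycling Rag1 cells had 0 to 25.9 CPM, on at most 2 UMIs in a row. Within the enolase pair, Eno3 held 20.7% to 32.2% of the UMIs in Ikzf2 cells, 1.18% to 4.50% in Rag1 cells, 2.54% to 4.10% in remaining cells, 3.64% to 12.2% in Cst3 cells and 0.707% to 4.38% in Cd79a cells.

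Sums of UMIs per row and set were compared by edgeR's quasi-likelihood test with the hashtag row as a block over all genes that passed the count filter, with Benjamini-Hochberg adjustment. The 4 odd rows are sorts from pooled mice and not single animals. With the row as a block, these p-values measure how far the difference between 2 sets varied across sorts, and not across animals. No row is assigned to a genotype, and no term for genotype was fitted. Between Ikzf2 and Rag1 cells, 25% of 9526 genes were higher and 22.1% lower in Ikzf2 cells, and of the 9 members tested 2 were higher and 4 lower. Eno3 was 12.8-fold higher in Ikzf2 cells (log2 fold 3.68 ± 0.15 SE, adjusted p = 1.27e-14, higher in 4 of 4 rows). Lower were Gapdh (log2 fold -0.47 ± 0.05 SE, adjusted p = 2.14e-08), Ldha (-0.44 ± 0.05 SE, 1.73e-07), Pgk1 (-0.39 ± 0.06 SE, 1.68e-05) and Tpi1 (-0.32 ± 0.06 SE, 2.43e-04), each in 4 of 4 rows. Ldha, for example, measured 898 to 1111 CPM in Ikzf2 and 1181 to 1385 CPM in Rag1 cells. Cycling moved with this comparison, as 55.6% to 88.6% of the Rag1 cells but 31.7% to 36.1% of the Ikzf2 cells were cycling. Among cycling cells alone the call of Tpi1 was lost (log2 fold -0.12, adjusted p = 0.174), while Eno3, Gapdh, Ldha and Pgk1 stayed called. Depth differed too: in rows 13, 15 and 17 the median was 14409 to 15274 UMIs in Rag1 and 5270.5 to 5962 in Ikzf2 cells. In row 11 it was 3684.5 and 4611. Tpi1 also lost its call among cells of 3000 to 15000 UMIs (-0.14, 0.365) and after thinning to 2000 UMIs (-0.31, 0.0586). The 4 other calls were kept in all 14 alternatives. Eno1 was 1.12-fold higher in Ikzf2 cells (adjusted p = 0.0257), a call lost without row 13, 15 or 17 (adjusted p = 0.0727, 0.111 and 0.0983). Ldhb did not pass the test (log2 fold 0.12 ± 0.08 SE, adjusted p = 0.221), with 135 to 159 CPM in Ikzf2 and 116 to 158 CPM in Rag1 cells, and neither did Pkm and Aldoa. Pkm was called higher among cells of 3000 to 15000 UMIs (0.32, 0.0118).

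Against the remaining cells, 9.4% of 9546 genes were higher and 8.44% lower in Ikzf2 cells. Of the 10 members, 2 were higher and 2 lower. Eno3 was 11.2-fold higher (log2 fold 3.48 ± 0.13 SE, adjusted p = 1.55e-10, higher in 4 of 4 rows). Over the alternative settings its log2 fold ran from 2.46 to 3.63, with the call kept. Ldhb was 1.27-fold higher (log2 fold 0.34 ± 0.09 SE, adjusted p = 0.0182), and Gapdh (log2 fold -0.19 ± 0.05 SE, adjusted p = 0.0231) and Pgk1 (-0.23 ± 0.07 SE, 0.0435) were lower, each in 4 of 4 rows. These 3 small differences did not survive the removal of single rows: without row 13, 15 or 17 the adjusted p was 0.162, 0.0915 and 0.0756 for Ldhb, 0.188, 0.160 and 0.152 for Gapdh and 0.167, 0.244 and 0.146 for Pgk1. Ldha passed the test only without row 11 (log2 fold -0.22, adjusted p = 0.00119). Without row 13, 814 genes were called and without row 15, 1028, of 1703 with all rows. Tpi1 and Aldoa were not called. Among noncycling cells alone Tpi1 was called higher (log2 fold 1.11, adjusted p = 4.48e-05) and Aldoa lower (-0.42, 0.00992) in Ikzf2 cells, and after thinning to 2000 UMIs Tpi1 was called higher as well (0.48, 0.00943).

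**Figure D2:**
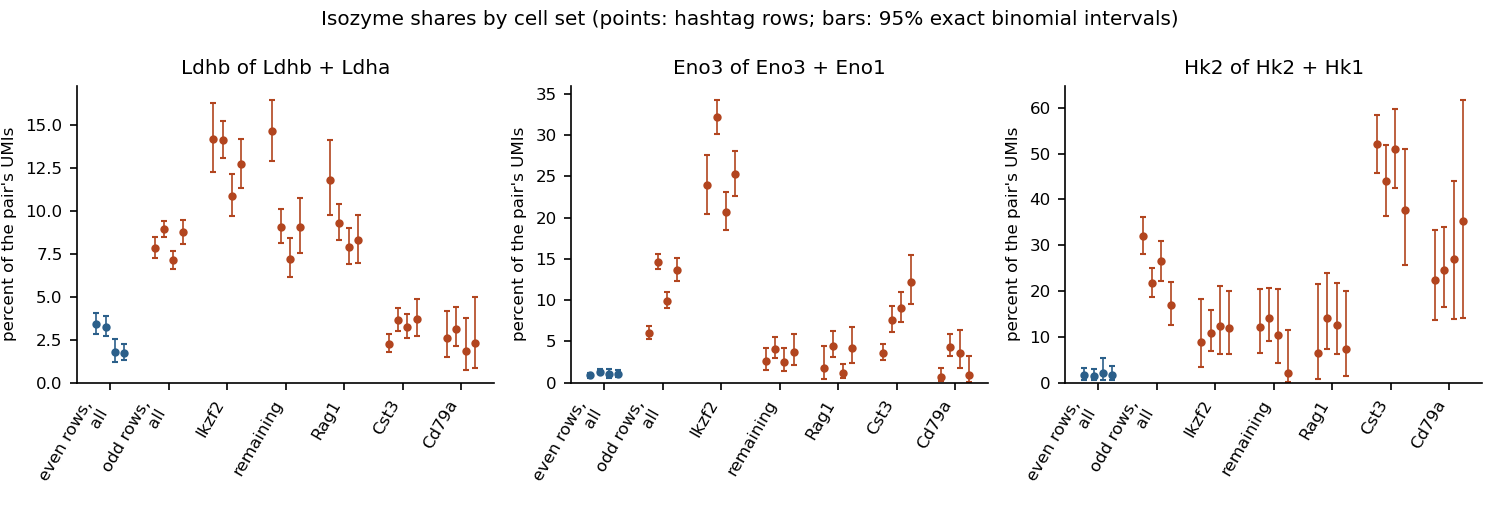
Percent of the UMIs of an isozyme pair (y axis, from 0) that belonged to Ldhb, Eno3 and Hk2, by set of cells (x axis); each point is a hashtag row in the order of the row numbers, with its 95% exact binomial interval. Ldhb held over 7% in the Ikzf2, Rag1 and remaining cells of every row and under 4% in Cst3 and Cd79a cells, Eno3 over 20% in Ikzf2 cells alone among the sets, and Hk2 over 37% in Cst3 cells.

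Ldhb was at or above 100 CPM in the Ikzf2, Rag1 and remaining cells, in which Cd3e, a subunit of the T cell receptor complex, measured 642 to 896 CPM, and it was low in the Cst3 and Cd79a cells. It measured 148, 158, 135 and 159 CPM in the Ikzf2 cells of rows 11, 13, 15 and 17, 17.9, 36.7, 32.6 and 41.7 CPM in Cst3 cells and 7.44, 10.99, 7.62 and 13.8 CPM in Cd79a cells. The ranges did not overlap between any 2 of these 3 sets. The Ikzf2 cells were 10.4-fold above the Cd79a cells (log2 fold 3.38 ± 0.14 SE, adjusted p = 2.56e-09) and 4.07-fold above the Cst3 cells (2.03 ± 0.15 SE, 3.99e-08) by edgeR, each in 4 of 4 rows. Over the alternative settings the log2 fold of Ldhb over Cst3 cells ran from 1.07 to 3.79, with the call kept. Eno3 was 10.8-fold above the Cd79a cells (log2 fold 3.43 ± 0.24 SE, adjusted p = 2.05e-07) and 3.94-fold above the Cst3 cells (1.98 ± 0.20 SE, 1.06e-06). In Cst3 cells Eno3 measured 14.6, 27.9, 37.0 and 53.0 CPM in rows 11, 13, 15 and 17. In the same order of rows, the transcripts of the T lineage in these Cst3 cells measured 36.5, 45.6, 72.8 and 124 CPM for Ikzf2 and 85.6, 155, 138 and 259 CPM for Cd3e, so row 11 was lowest and row 17 highest in all 3. In Cd79a cells Cd3e measured 46.5 to 145 CPM. Free RNA and droplets with more than 1 cell can carry such transcripts, and their part in the minor isozymes of the Cst3 and Cd79a cells was not tested.

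The abundant members differed less between these sets. Against Cd79a cells, 26.6% of 9924 genes were higher and 27.5% lower in Ikzf2 cells, and of the 10 members 6 were higher and 2 lower. Ldha was 1.78-fold higher (log2 fold 0.83 ± 0.11 SE, adjusted p = 6.65e-05), with 898 to 1111 CPM in Ikzf2 and 281 to 579 CPM in Cd79a cells. Aldoa was 2.09-fold lower (log2 fold -1.06 ± 0.11 SE, adjusted p = 5.83e-06), with 390 to 440 CPM in Ikzf2 and 448 to 671 CPM in Cd79a cells. Hk2 was 2.44-fold lower (log2 fold -1.29 ± 0.28 SE, adjusted p = 0.00214), with 5.09 to 6.81 CPM against 7.91 to 13.8 CPM. Smaller were the differences of Tpi1 (log2 fold 0.37 ± 0.13 SE, adjusted p = 0.0266), Pkm (0.30 ± 0.11 SE, 0.0413) and Gapdh (0.28 ± 0.09 SE, 0.0198). They depended on single rows: without row 11 the adjusted p was 0.178, 0.165 and 0.0917, without row 13 it was 0.109, 0.188 and 0.148, and without row 15 Tpi1 (0.0666) and Pkm (0.0779) were lost. Cycling differed as well, with 15.5% to 27.6% of the Cd79a and 31.7% to 36.1% of the Ikzf2 cells. Gapdh lost its call among cycling (0.11, 0.308) and among noncycling cells alone (0.32, 0.0659). Among cycling cells alone Pkm was not called either (-0.086, 0.621). Eno1 missed the threshold (log2 fold -0.28 ± 0.11 SE, adjusted p = 0.0516) and passed it without row 15 (-0.35, 0.0274). Its CPM were higher in Ikzf2 cells in 3 of 4 rows (medians 409 and 317 CPM), so the sign of its fold rests on the scaling described below.

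Against Cst3 cells, 24.8% of 10351 genes were higher and 25.7% lower in Ikzf2 cells, and of the 10 members 3 were higher and 4 lower. Hk2 was 5.05-fold lower in Ikzf2 cells (log2 fold -2.34 ± 0.21 SE, adjusted p = 3.77e-07), with 31.3, 23.1, 28.3 and 20.0 CPM in the Cst3 cells of rows 11, 13, 15 and 17. Every row of the Cst3 cells was above every row of the Ikzf2 cells. Hk2 held 37.7% to 52.2% of the UMIs of Hk1 and Hk2 in Cst3 cells and 8.82% to 12.4% in Ikzf2 cells. Within the Cst3 set, this share was 12% to 45.0% in cycling and 57.4% to 70.6% in noncycling cells. Aldoa was lower in Ikzf2 cells (log2 fold -0.41 ± 0.06 SE, adjusted p = 6.58e-05) and Pkm higher (0.19 ± 0.05 SE, 0.00773), in 4 of 4 rows each. Pgk1 (log2 fold -0.18 ± 0.07 SE, adjusted p = 0.0355) and Ldha (-0.16 ± 0.05 SE, 0.0241) were called lower by small amounts relative to the other genes, though their CPM were higher in Ikzf2 cells in 3 of 4 rows. The median CPM of Ldha was 1028 in Ikzf2 and 971 in Cst3 cells, and that of Pgk1 261 and 249, so the direction of both calls rests on the scaling described below. Both were lost without row 13 (adjusted p = 0.144 and 0.165), and Pgk1 also without row 15 or 17 (0.109 and 0.0505). Among cycling cells alone neither Aldoa (-0.07, 0.564) nor Pkm (0.11, 0.258) was called, and Pkm was not called with DESeq2 either (0.16, adjusted p = 0.0880). Eno1, Tpi1 and Gapdh were not called against all Cst3 cells. Among noncycling cells alone Eno1 (-0.23, 0.0151) and Gapdh (-0.12, 0.0416) were called lower after TMM, while the CPM in noncycling Ikzf2 cells were higher in 3 of 4 rows for Eno1 and in 4 of 4 rows for Gapdh.

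These comparisons depended on the scaling, as edgeR's trimmed mean of M values (TMM) takes most genes as unchanged. With library totals in place of TMM, the log2 folds of all genes shifted by a median of 0.54 against Cd79a cells, 0.26 against Cst3 cells and 0.08 against Rag1 cells, and by -0.12 between cycling and noncycling Ikzf2 cells. The share of the calls that were higher in the first set went from 49.2% to 80.2%, from 49.1% to 72.3%, from 53.1% to 63.5% and from 51.6% to 39.5% in these comparisons. Relative to that shift, the called differences of Ldhb, Eno3, Aldoa and Hk2 between Ikzf2 and Cd79a or Cst3 cells kept their direction and passed the test under both scalings. The sizes of the folds also rest on the scaling, most of all against Cd79a cells. By median CPM, Ikzf2 and Cd79a cells had 1028 and 372 for Ldha, 393 and 597 for Aldoa, and 5.75 and 9.74 for Hk2. Against Cst3 cells, Ldha and Pgk1 turned to 0.10 and 0.08 on the log2 scale without TMM, with no call, and Gapdh (0.22, adjusted p = 0.00113) and Tpi1 (0.29, 0.00955) were called higher. Without TMM, calls were also gained by Pgk1 against Cd79a cells (0.63, 2.85e-04) and by Ldhb (0.20, 0.0473) and Aldoa (0.14, 0.0481) against Rag1 cells, all higher in Ikzf2 cells.

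**Figure D3:**
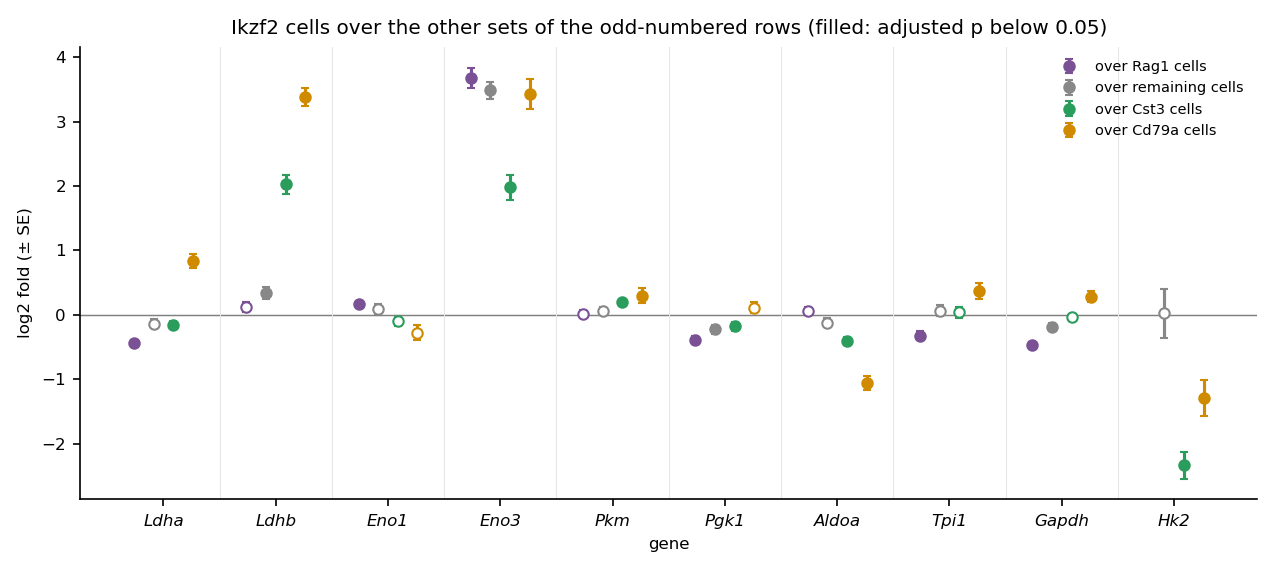
Log2 fold of Ikzf2 cells over the 4 other sets of the odd rows (y axis, ± SE from edgeR) for the 10 genes (x axis), with filled points for an adjusted p below 0.05. Eno3 lies at 1.98 or above in all 4 comparisons, Ldhb at 2.03 or above only over Cst3 and Cd79a cells, and Hk2 below -1.2 over the same 2 sets.

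Cycling Ikzf2 cells held more of the common dehydrogenase transcript and less of the minor one than noncycling Ikzf2 cells. Ldha measured 1016, 1143, 1263 and 1260 CPM in the cycling cells of rows 11, 13, 15 and 17 and 748, 702, 867 and 787 CPM in the noncycling cells. Ldhb measured 99.4, 116, 97.9 and 119 CPM in cycling and 221, 215, 198 and 217 CPM in noncycling cells. For both genes the ranges did not overlap, in opposite directions. By edgeR, Ldha rose 1.64-fold with cycling (log2 fold 0.71 ± 0.07 SE, adjusted p = 5.73e-09) and Ldhb fell 1.80-fold (-0.85 ± 0.10 SE, 1.52e-07). Ldhb thus held 7.20% to 9.24% of the UMIs of the pair in cycling and 18.6% to 23.5% in noncycling Ikzf2 cells. This order was not particular to Ikzf2 cells. The share was 5.48% to 7.56% in cycling and 15.8% to 27.3% in noncycling remaining cells. In Rag1 cells it was 7.29% to 8.84% and 23.1% to 56.4%, with only 6 to 26 noncycling cells per row. Cst3 cells had the opposite order, with 3.14% to 4.94% in cycling and 0% to 1.69% in noncycling cells.

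Eno3 fell 2.18-fold with cycling (log2 fold -1.12 ± 0.14 SE, adjusted p = 2.02e-07). It measured 104, 111, 55.6 and 92.7 CPM in the cycling and 116, 294, 190 and 204 CPM in the noncycling Ikzf2 cells of rows 11, 13, 15 and 17. It was lower in the cycling cells of all 4 rows, least so in row 11. Eno1 fell 1.16-fold (log2 fold -0.22 ± 0.08 SE, adjusted p = 0.0339), a call lost without row 11, 13 or 15 (adjusted p = 0.236, 0.0765 and 0.0935). The call was also lost with DESeq2 (0.308), without the count filter (0.229) and without the row block (0.0619). It was kept in 7 of 13 alternative settings, over which the log2 fold ran from -0.58 to -0.13.

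Of the 9 members tested between cycling and noncycling Ikzf2 cells, 4 rose and 3 fell, where 24.4% of 8327 genes rose and 22.9% fell. Beside Ldha, Tpi1 rose 1.61-fold (log2 fold 0.69 ± 0.10 SE, adjusted p = 9.65e-07), Pgk1 1.54-fold (0.62 ± 0.10 SE, 4.74e-06) and Gapdh 1.498-fold (0.58 ± 0.07 SE, 2.72e-08), each in 4 of 4 rows. Gapdh, for instance, measured 4008, 4420, 4522 and 4333 CPM in cycling and 3020, 2887, 3357 and 3224 CPM in noncycling cells. Pkm (693 to 797 CPM and 710 to 859 CPM) and Aldoa (346 to 424 CPM and 370 to 432 CPM) were not called, and Hk2, under 9 CPM in both, did not pass the count filter. The cycling cells were also the deeper cells, with a median of 12001 to 13472 UMIs against 3654 to 4548 in noncycling Ikzf2 cells. Among cells of 3000 to 15000 UMIs, Ldha, Gapdh, Ldhb and Eno3 kept their calls, Tpi1 and Pgk1 lost theirs with both log2 folds at 0.23 (adjusted p = 0.0875 and 0.0995), and Pkm and Aldoa were called lower (log2 folds -0.28 and -0.36). After thinning to 2000 UMIs the 4 rising members, Ldhb and Eno3 kept their calls and directions. The size of the rises was less stable than the calls. Over the 13 alternative settings, the log2 folds of Ldha and Gapdh went as low as 0.24 and 0.18, below the 0.71 and 0.58 given above. Those of Ldhb ran from -0.97 to -0.78 and those of Eno3 from -1.29 to -0.98. In the remaining cells, where cycling was not tested, the 4 rising members were also higher in cycling cells. Ldha had 1017 to 1410 CPM in cycling and 612 to 910 CPM in noncycling remaining cells, and Gapdh 4393 to 5017 and 2632 to 3428 CPM. Tpi1 had 302 to 382 and 76.9 to 143 CPM, and Pgk1 320 to 358 and 191 to 233 CPM.

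**Figure D4:**
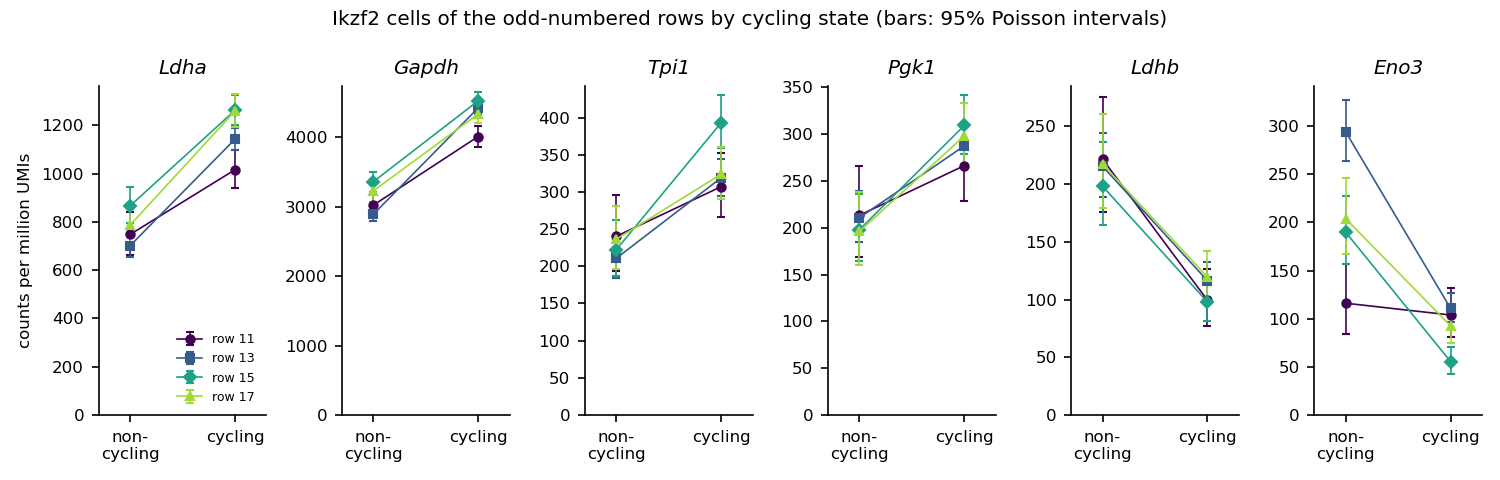
Counts per 1000000 UMIs (y axis, from 0) of 6 members in noncycling and cycling Ikzf2 cells (x axis), with a line for each odd hashtag row and 95% exact Poisson intervals. Ldha, Gapdh, Tpi1 and Pgk1 were higher and Ldhb and Eno3 lower in the cycling cells of all 4 rows.

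In the even rows, 4 of the 8 members tested rose with cycling and 1 fell, where 8.16% of 8414 genes rose and 3.62% fell. Tpi1 measured 209, 194, 317 and 304 CPM in the cycling cells of rows 12, 14, 16 and 18 and 147, 159, 150 and 170 CPM in the noncycling cells. The ranges did not overlap, and Tpi1 rose 1.57-fold (log2 fold 0.65 ± 0.11 SE, adjusted p = 8.74e-05 by edgeR). Pgk1 rose 1.36-fold (log2 fold 0.45 ± 0.10 SE, adjusted p = 0.00244), Gapdh 1.34-fold (0.42 ± 0.05 SE, 5.86e-07) and Ldha 1.29-fold (0.36 ± 0.07 SE, 5.29e-04), each in 4 of 4 rows. Aldoa fell 1.32-fold (-0.40 ± 0.08 SE, 4.60e-04), with 436 to 527 CPM in cycling and 606 to 676 CPM in noncycling cells. Pkm was higher in 4 of 4 rows but missed the threshold (log2 fold 0.23 ± 0.08 SE, adjusted p = 0.0669). Ldhb (log2 fold -0.21 ± 0.35 SE, adjusted p = 0.794) and Eno1 (0.01 ± 0.08 SE, 0.979) were not called, and Eno3 and Hk2 did not pass the count filter. At 3.71 to 23.5 CPM in the cycling cells and with this SE, a change of Ldhb of the size seen in Ikzf2 cells could have been missed here. After thinning each cell to 2000 UMIs, Ldha, Pgk1 and Gapdh lost their calls (adjusted p = 0.204, 0.445 and 0.542), and without row 18 the number of genes called went from 992 to 588. Whether the cycling difference of any member differs between odd and even rows was not tested.

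**Figure D5:**
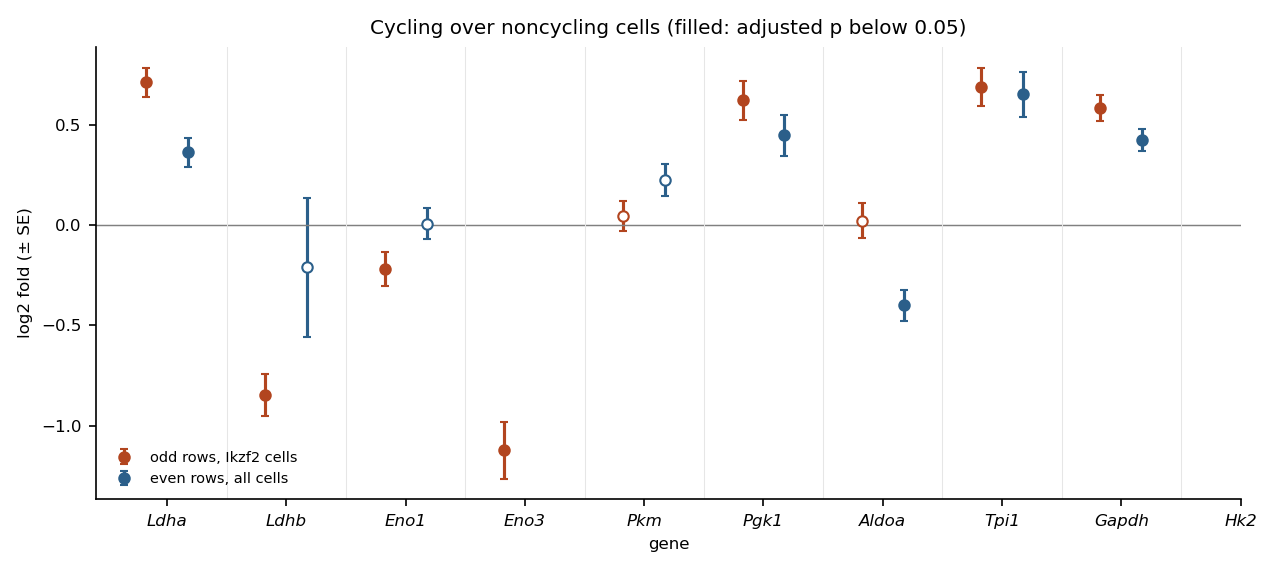
Log2 fold of cycling over noncycling cells (y axis, ± SE from edgeR) for the 10 genes (x axis) in the Ikzf2 cells of odd rows (red) and all cells of even rows (blue); filled points have an adjusted p below 0.05, and genes that did not pass the count filter have no point. Ldha, Pgk1, Tpi1 and Gapdh lie above 0 in both, Ldhb and Eno3 below -0.8 in the Ikzf2 cells, and Aldoa below 0 in the even rows.

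Of the 23 other genes of the pathway and its transporters, 10 were tested between cycling and noncycling Ikzf2 cells, of which 2 rose and 2 fell. The rising genes were Pgam1 (log2 fold 0.27 ± 0.09 SE, adjusted p = 0.0120) and the monocarboxylate transporter gene Slc16a1 (1.73 ± 0.29 SE, 1.58e-05). The falling genes were Bpgm, the bisphosphoglycerate mutase (-0.64 ± 0.22 SE, 0.0176), and the transporter gene Slc16a3, whose product is known for lactate export (-1.24 ± 0.26 SE, 2.71e-04). In the even rows, 0 of 9 such genes passed the test. Slc16a3 resembled Eno3 in the sets: it was higher in Ikzf2 than in Rag1 cells (3.24 ± 0.34 SE, 5.41e-08) and than in remaining cells (3.74 ± 0.34 SE, 1.37e-06), with 11.9 to 27.8 CPM in Ikzf2 cells and at most 3.79 CPM in the other two. Of 8 genes next to the pathway, Tkt, a transketolase of the pentose phosphate pathway, rose with cycling in Ikzf2 cells (0.80 ± 0.08 SE, 5.08e-09) and in even rows (0.50 ± 0.10 SE, 8.30e-04). Pdha1, a subunit of pyruvate dehydrogenase, fell in cycling Ikzf2 cells (log2 fold -0.34), and the 6 others were not called there. Of 5 regulators, 3 were tested in Ikzf2 cells, of which Egln3, a prolyl hydroxylase that acts on Hif1a, rose with cycling (log2 fold 0.96), Myc rose (0.29 ± 0.11 SE, 0.0370) and Hif1a fell (-0.52 ± 0.13 SE, 0.00209) in cycling Ikzf2 cells, with Myc higher in only 2 of 4 rows by CPM.

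Across the 24 sums of a row and a set, on log2(CPM + 10), Ldha ran closest to Pgk1 among the members (Pearson r = 0.98), followed by Tpi1 and Gapdh (both 0.93), and Ldhb to Pkm (0.89). Aldoa ran opposite to Ldhb (-0.81) and Gapdh (-0.76). Over all genes, those most like Ldha were Nhp2, Tomm5 and Rbx1 (each 0.98), and those most like Ldhb were Spint2, Abhd17c and Rbmx (each 0.98). These sums share rows, depth and cycling cells, so the values describe their likeness and carry no test.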

How the data were processed

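Counts of UMIs per gene or hashtag and barcode were deposited by the authors, who made them with Cell Ranger 6.0.0 and a mouse mm10 reference. The release of that reference was not named in any source read. The deposited counts are not normalized and hold the barcodes that Cell Ranger called cells. The matrix pools all populations, with 2140 of the barcodes that passed the filters (17.6%) left out because no hashtag row was dominant. No label assigns the hashtag rows to stage or genotype, and their values are given singly or as ranges.

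CPM are UMIs of a gene per 1000000 gene UMIs of a row or set. Their 95% intervals are exact Poisson, and those of shares are exact Clopper-Pearson. Both cover counting error only. Sets were compared by edgeR 4.0.16 (R 4.3.3) on UMI sums of at least 20 cells, with TMM, the row as a block, quasi-likelihood tests and Benjamini-Hochberg adjustment over all genes tested at 0.05. A call is an adjusted p below this. edgeR's filterByExpr removed low genes. DESeq2 1.42.0 was an alternative. The test was checked on simulated data. Of the 2 rows named Aldoa, the one with 41164 UMIs was used and not the one with 52.

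Cells thinned to 2000 UMIs left out 768 shallower cells. In odd rows 563 cells met more than 1 marker limit and were placed by the first met, in the order Cd79a, Cst3, Rag1 and Ikzf2. Doublets within a hashtag and free RNA were not removed. The genes named are the 10 members, 23 further pathway and transport genes, 8 genes next to the pathway, 5 regulators, Eno1b and the genes most like Ldha and Ldhb. The members and lists were chosen with earlier results of these data known. Gene positions are those of GENCODE M21.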

Additional observations from a re-analysis of the deposited data

Results flagged for a closer look

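In 1 comparison a single row stood apart. The log2 ratio of Gapdh CPM (with 10 CPM added) in cycling over noncycling Ikzf2 cells was 0.61 in row 13 and 0.41, 0.43 and 0.43 in rows 11, 15 and 17. Row 13 was farther from its neighbour than Dixon's 95% limit for 4 values allows. Such a gap is given by chance in about 1 of 20 groups, and 60 groups were looked at. Gapdh stayed called without row 13.

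The 12 hashtag rows not in use held 25599 UMIs, above the 3 that a count of 0 would allow, of which 12255 lay on row 1 and 11854 on row 4. Each of the others held at most 599 UMIs. The rows in use held at least 1352182 UMIs each.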

How the results depend on the processing

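Of 784 values of a member's log2 fold under another setting, 679 stayed on the same side of the threshold with no change of sign in a called value, 76 lost the call, 20 gained it and 9 turned sign with a call in at least 1 of both fits. Of the 679, 42 changed sign without a call in either. Those 42 did not keep their direction. The values that turned with a call were, with only cells of 3000 to 15000 UMIs, Pkm (-0.28) and Aldoa (-0.36) between cycling and noncycling Ikzf2 cells. With library totals in place of TMM they were Ldha (0.10), Pgk1 (0.076) and Gapdh (0.22) against Cst3 cells, where that scaling moves the median of all genes by 0.26. Among cycling cells alone, an alternative added after the data were seen, they were Pkm against Cd79a cells (-0.086) and Ldha against Cst3 cells (0.017). Among noncycling cells alone they were Pgk1 (0.014) and Gapdh (0.13) against remaining cells. The cause of the other turns was not tested.

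The number of genes called was 3941 for cycling Ikzf2 cells, 992 for cycling even-row cells, and 4488, 5367, 5230 and 1703 for Ikzf2 against Rag1, Cd79a, Cst3 and remaining cells. After thinning to 2000 UMIs, which leaves fewer UMIs, these 6 counts were 1198, 227, 1779, 2880, 2950 and 742. DESeq2 called 2190, 590, 2570 and 623 genes for cycling Ikzf2, cycling even-row, Rag1 and remaining cells. Cells of 3000 to 15000 UMIs gave 1905 for cycling Ikzf2 cells and 2542 against Rag1 cells. Noncycling cells alone gave 3086 against Cd79a and 732 against remaining cells, and cycling cells alone 1764, 2666, 2184 and 1003 against Rag1, Cd79a, Cst3 and remaining cells. Without the row block, 1098 were called against remaining cells. Leaving out 1 row gave 3115 to 3962 for cycling Ikzf2, 588 to 1057 for cycling even-row, and 3272 to 4430, 3916 to 5630, 4109 to 5261 and 814 to 2315 for the 4 sets. Of the levels and shares in single rows, 283 stayed within their 95% interval and 181 moved beyond it. Rag1 cells were too few for a fit among noncycling cells alone, which was not run. Thinned values leave out the 768 cells under 2000 UMIs.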
